A study of Mus musculus with 45 samples.

Results

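The transcriptional response of MYAZ16.1e cells to the loss of extracellular cystine was followed by mRNA sequencing in 6 libraries, taken from the 45 libraries of the series by their labels (cell line MYAZ16_1e, treatment Control or Cys deprived). MYAZ16.1e is a cell line from a mammary gland tumour of an MMTV-cMYC mouse, in which the mouse mammary tumour virus promoter drives a MYC transgene in the mammary epithelium, and in the study it stands for tumour cells with low metastatic potential. Each well of a 6-well plate received 250000 cells in DMEM:F12 with serum, glutamine, insulin, hydrocortisone and EGF. After 24 h the medium was changed either to control medium (3 libraries) or to medium without cysteine and cystine (3 libraries), and RNA was collected 6 h later. All 6 libraries carry the same MYC transgene, come from 1 line and share serum and growth factors, and the sources name no difference between the media other than cysteine and cystine. The series describes the 3 libraries of a group as technical replicates, and p-values therefore measure the spread between these samples, which may be technical. Where the response was compared with that of other lines, these were Myc310, a line from another MMTV-cMYC mouse, LM1, which was isolated from lung metastases of Myc310 cells, and LM1-LM, isolated from lung metastases of LM1 cells, each with 3 control and 3 deprived libraries in the same media. These 3 lines are a single lineage, and the comparison is of 1 line with 1 lineage.

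Cells take up cystine, the oxidised dimer of cysteine, through the antiporter xCT (Slc7a11 with its heavy chain Slc3a2) in exchange for glutamate, and reduce it inside the cell to cysteine, which feeds protein synthesis, glutathione, taurine and iron-sulphur clusters. A cell can also make cysteine from methionine by transsulfuration, with cystathionine beta-synthase (Cbs) and cystathionine gamma-lyase (Cth). When an amino acid runs short, uncharged tRNA activates the kinase GCN2 (Eif2ak4), which phosphorylates eIF2alpha, lowers general translation and raises the translation of Atf4, a transcription factor for amino acid transporters, synthetic enzymes and tRNA synthetases. This programme is the integrated stress response (ISR), and lack of glutathione in addition exposes cells to peroxides and, through lipid peroxidation, to ferroptosis.

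Each library held between 19517859 and 29019988 counts over all genes, with 16416 to 17120 genes that had at least 1 count. Levels are given as CPM, counts scaled to the library's TMM-normalised total, which are not corrected for gene length and are compared only within a gene. Correlations of log2 CPM were 0.995 to 0.997 within a medium and 0.963 to 0.966 between media, and the first principal component over 9181 genes held 86.5% of the variance and separated the media. Control replicate 1 stood apart in the share of counts on mitochondrial genes, 1.49% against 2.16% to 2.24% in the other 5 libraries. Of the luminal epithelial markers, the keratins Krt8 (784.0 to 803 CPM in control) and Krt18 (265 to 275 CPM) were abundant, whereas the epithelial adhesion genes Epcam (0.601 to 0.714 CPM) and Cdh1 (0.136 to 0.150 CPM) were near the limit of detection and Elf5 had no count. The mesenchymal filament gene Vim lay at 3922 to 4021 CPM in control and at 3996 to 4058 CPM after deprivation. Markers of other cell types were low in both media: the 7 leukocyte markers found summed to 5.68 to 6.31 CPM in control and 6.15 to 7.02 CPM in deprived libraries, and the 12 fibroblast markers to 7.46 to 10.3 CPM and 10.7 to 11.9 CPM, with 8 of the 12 at no more than 3 counts in each of the 6 libraries. Endothelial markers summed to 64.1 to 69.7 CPM in control and 58.2 to 66.1 CPM after deprivation, of which the receptor Flt1 held 44.7 to 53.9 CPM while the adhesion gene Cdh5 was at 0 in all 6 libraries. Basal markers summed to 20.6 to 25.7 CPM and 16.6 to 21.5 CPM, mostly on the contractile genes Mylk and Acta2, with the keratin Krt5 at 0. The part of these cell types in the results was not tested.

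Of 13400 genes tested, 3560 were higher (26.6%) and 3635 were lower (27.1%) after 6 h without cystine at an adjusted p under 0.05 (edgeR's quasi-likelihood test, adjusted by Benjamini-Hochberg, as for each adjusted p given here). A gene said to have risen or fallen passed this threshold. One that missed it in MYAZ16.1e is said to have missed it or is printed with its adjusted p. Values given alone can be of either kind. Each count of list members that rose or fell in MYAZ16.1e is to be read against these shares, 26.6% higher and 27.1% lower. A count near them is a description of the members and no result about the list. The median log2 fold change over all tested genes was 0. Most of the changes were small: 507 genes (3.78%) rose by more than 2-fold and 110 (0.821%) fell by more than 2-fold. The larger changes were thus mostly increases, although the numbers that rose and fell were close to equal. The RNA is from bulk cultures, in which fewer cells of a kind and less RNA per cell cannot be told apart, and CPM are relative to the total, so that a change of total mRNA is not seen. For 7886 genes (58.9%) the 3 control and the 3 deprived libraries did not overlap in CPM.

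**Figure D1:**
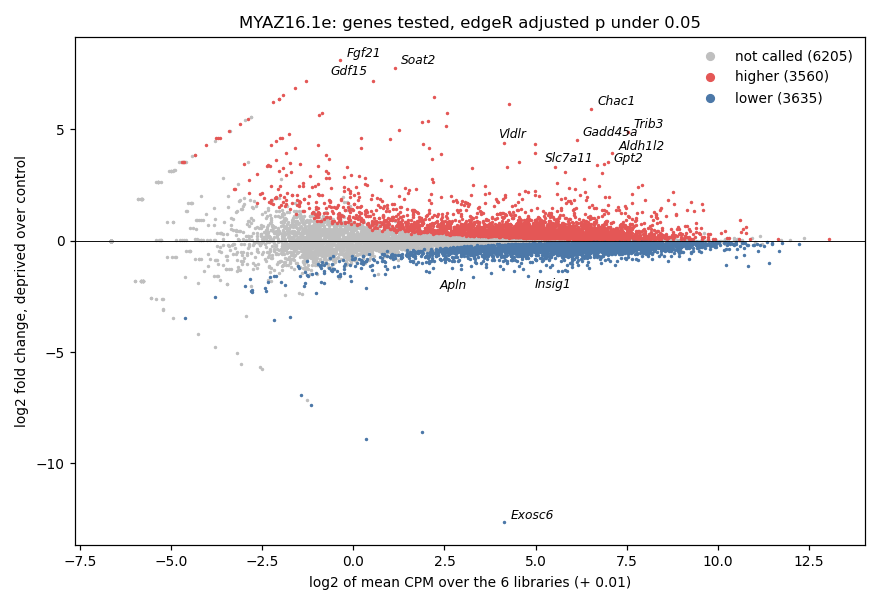
Each point is 1 of the 13400 genes tested in MYAZ16.1e. The horizontal axis gives the log2 of the mean CPM over the 6 libraries (plus 0.01) and the vertical axis the log2 fold change of deprived over control, with 3560 higher genes in red, 3635 lower genes in blue and the others in grey. Increases reach further from 0 than decreases at moderate and high levels, and the lone gene far below at a moderate level is Exosc6, which lies wholly within Aars.

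Changes were ranked under a filter on level (mean log2 CPM of at least 3 over the 6 libraries, with no overlap between media). The 15 largest increases were Chac1, Trib3, Gadd45a, Vldlr, Aldh1l2, Arid5a, Gpt2, Ddit3, Sesn2, Slc7a11, Nupr1, Ciart, Cth, Slc6a9 and Psph. They ranged from 5.94 to 2.76 on the log2 scale. The next gene outside this group was Mib2 (2.62). The filter averages both media, so a gene that is low in control can pass through its deprived libraries. Chac1, Gadd45a, Vldlr, Arid5a, Ddit3 and Ciart lay below the cut in control and passed in this way. Their place in the ranking therefore depends on the response itself. The 15 largest decreases were smaller, from -1.62 to -1.14, and comprised Apln, Insig1, Hsd17b7, Hspa1b, Skp2, Cdc6, Idi1, Ccne2, Hspa1a, Ung, Elovl6, Acat2, Hmgcs1, Gdf11 and Tmem50b, with Orc1 (-1.13) next. The increases hold genes of cysteine supply, amino acid synthesis and the ISR, and the decreases hold genes of sterol and fatty acid synthesis (Insig1, Hsd17b7, Idi1, Elovl6, Acat2, Hmgcs1), the start of DNA replication (Cdc6, Ccne2, Skp2) and heat shock proteins (Hspa1a, Hspa1b). Apln encodes the secreted peptide apelin. It lay at 14.8, 15.4 and 13.7 CPM in control and 4.65, 4.82 and 4.77 CPM in deprived libraries, with a log2 fold change of -1.62 (SE 0.105, adjusted p = 4.68e-14).

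Among the increases with other roles, Arid5a, an RNA-binding protein that stabilises inflammatory messages, went from 3.76, 3.24 and 4.45 CPM to 59.2, 59.0 and 58.9 CPM (log2 fold change 3.92, SE 0.0711, adjusted p = 6.31e-28). Ciart, a repressor of the circadian clock, went from 3.56, 3.24 and 3.47 CPM to 32.7, 35.4 and 33.6 CPM (log2 fold change 3.30, SE 0.109, adjusted p = 3.68e-21), and Nupr1, a small stress regulator of chromatin, from 8.22, 8.36 and 8.56 CPM to 82.3, 85.5 and 82.4 CPM (log2 fold change 3.30, SE 0.0568, adjusted p = 1.5e-28). For these 3 genes every deprived library lay far above every control library. Among the decreases, Gdf11, a ligand of the TGF-beta family, went from 18.5, 17.3 and 15.7 CPM to 8.0, 7.14 and 7.86 CPM (log2 fold change -1.16, SE 0.0927, adjusted p = 6.01e-12). Skp2, the substrate-binding subunit of the ligase that removes the CDK inhibitor p27, went from 73.9, 78.2 and 76.3 CPM to 29.5, 31.5 and 29.3 CPM (log2 fold change -1.35, SE 0.0482, adjusted p = 2.68e-20), and Ung, which removes uracil from DNA, from 34.0, 36.2 and 36.0 CPM to 12.9, 16.4 and 15.3 CPM (log2 fold change -1.26, SE 0.0736, adjusted p = 4.68e-15). Tmem50b, a membrane protein, fell from 11.4, 13.3 and 14.1 CPM to 4.65, 7.0 and 6.06 CPM (log2 fold change -1.14, SE 0.112, adjusted p = 5.13e-10), the smallest margin between media of these 4 genes.

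To show what the promoters of the largest increases share in their letters, the 250 bases before the start of transcription were read for the genes whose window holds TGATGNAA, the core of the C/EBP-ATF response element that Atf4 and its partners bind. Windows of 300 bases (250 before and 50 after the start) come from RefSeq on GRCm38.p6 and were searched on both strands, so that TTNCATCA also counts. Capitals mark the match. Each sequence runs 5′ to 3′ on the gene's own strand.
Chac1 (chr2:119350992-119351241, plus strand): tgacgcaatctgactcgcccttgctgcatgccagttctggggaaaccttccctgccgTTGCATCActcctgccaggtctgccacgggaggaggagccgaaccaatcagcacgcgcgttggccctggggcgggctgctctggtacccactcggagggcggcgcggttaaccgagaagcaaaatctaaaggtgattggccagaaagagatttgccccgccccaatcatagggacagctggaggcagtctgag
Vldlr (chr19:27216770-27217019, plus strand): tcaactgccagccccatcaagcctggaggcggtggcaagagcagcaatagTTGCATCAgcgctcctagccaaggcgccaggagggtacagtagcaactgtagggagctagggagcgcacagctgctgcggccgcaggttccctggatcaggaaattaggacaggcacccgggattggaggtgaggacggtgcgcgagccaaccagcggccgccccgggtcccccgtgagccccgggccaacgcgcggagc
Arid5a (chr1:36307483-36307732, plus strand): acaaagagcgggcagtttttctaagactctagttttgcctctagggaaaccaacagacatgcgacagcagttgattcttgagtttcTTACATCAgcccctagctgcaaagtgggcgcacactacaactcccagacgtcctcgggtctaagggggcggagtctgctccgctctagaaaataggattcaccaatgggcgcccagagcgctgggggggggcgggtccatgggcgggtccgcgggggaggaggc
Slc7a11 (chr3:50443614-50443863, minus strand): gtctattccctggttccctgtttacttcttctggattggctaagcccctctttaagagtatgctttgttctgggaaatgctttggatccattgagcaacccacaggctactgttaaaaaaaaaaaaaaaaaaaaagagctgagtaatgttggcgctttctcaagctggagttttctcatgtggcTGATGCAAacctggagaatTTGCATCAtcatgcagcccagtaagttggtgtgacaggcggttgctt
Nupr1 (chr7:126625471-126625720, minus strand): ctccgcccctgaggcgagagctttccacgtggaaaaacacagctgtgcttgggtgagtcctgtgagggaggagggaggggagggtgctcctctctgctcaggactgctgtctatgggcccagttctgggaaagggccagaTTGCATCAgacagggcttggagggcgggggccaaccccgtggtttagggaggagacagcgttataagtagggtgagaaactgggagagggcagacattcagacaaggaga
Trib3 (chr2:152344028-152344057, minus strand, 30 bases around its match): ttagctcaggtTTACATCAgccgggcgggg
The match begins 193 bases before the start in Chac1, 200 in Vldlr, 164 in Arid5a and 110 in Nupr1. Slc7a11 holds a pair of matches on opposite strands, 66 and 47 bases before the start, and the match of Trib3 begins at base 14 after the start. A gene can have more than 1 window, so shares are given by gene. Among the 15 largest increases, 13 genes had a window and 6 of these held TGATGNAA, against 1219 of all 27025 genes with a window (4.51%; 1304 of 32851 windows, 3.97%). Of the 15 largest decreases, 14 genes had a window and 2 held it (Idi1 and Ung). It stood in 5 of the 12 cytosolic aminoacyl-tRNA synthetase genes with a window in 3 of 9 genes of ISR transcription factors, in 2 of 17 sterol genes and in 1 of 17 p53 targets.
The antioxidant response element core TGACNNNGC, which NRF2 binds, was found in 3 of the 13 increases (Psph, Sesn2 and Slc6a9), in 2 of the 14 decreases (Cdc6 and Hsd17b7) and in 14.0% of all genes (12.4% of windows). The E-box CACGTG stood in 2 of 13 (Ciart and Nupr1), in 2 of 14 (Hsd17b7 and Insig1) and in 8.09% of all genes (7.15% of windows). CCAAT, a common promoter box, was in 9 of 13 increases and 9 of 14 decreases, in all 17 sterol genes with a window and in 41.1% of all genes (37.4% of windows). These matches are a description of letters within the windows and were not tested as binding sites.

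The genes that bring cystine into the cell rose. Slc7a11 (ENSMUSG00000027737, chr3:49892526-50443614, minus strand), the transport subunit of xCT, lay at 17.8, 17.6 and 16.9 CPM in the 3 control libraries and at 188, 184 and 189 CPM in the 3 deprived libraries. No deprived library came near a control library, and the log2 fold change was 3.42 (SE 0.0470, adjusted p = 5.35e-31). Its heavy chain Slc3a2, which also serves other exchangers, went from 170.3, 174 and 174 CPM to 622, 627 and 607 CPM. This was an increase of 1.84 (SE 0.0235, adjusted p = 9.49e-32), with 3 separate libraries on each side. Slc1a4, a carrier of alanine, serine and cysteine, rose from 49.0 ± 2.20 CPM (SD, n = 3) to 191 ± 2.38 CPM, a log2 fold change of 1.95 (SE 0.0415, adjusted p = 3.24e-26).

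Of the transsulfuration enzymes Cth rose and Cbs was too low to tell. Cth, which releases cysteine from cystathionine, rose from 10.7, 10.6 and 13.0 CPM to 103, 102 and 95.5 CPM (log2 fold change 3.10, SE 0.0561, adjusted p = 6.1e-28). Gm43314 overlaps Cth on the same strand, so that reads of the shared stretch can be given to either. Cbs, the enzyme before it, was barely detected: its libraries held 5, 3 and 6 counts in control and 6, 13 and 10 counts after deprivation. The log2 fold change of Cbs was 1.09 (SE 0.678, adjusted p = 0.184), so that at this depth a change of Cbs could not be told from the spread. Upstream in the methionine cycle, Mtr and Mtrr, methionine synthase and its reductase, rose by 0.22 and 0.29. Mat2a, which makes S-adenosylmethionine, went from 461, 475 and 476 CPM to 357, 339 and 334 CPM and fell by 0.46 on the log2 scale. Ahcy, which cleaves S-adenosylhomocysteine, fell by 0.40, and Mtap, which salvages methionine from polyamine synthesis, fell by 0.70. In all, 4 of the 10 tested genes of transsulfuration and the methionine cycle rose and 4 fell (26.6% and 27.1% of all genes), with a median log2 fold change of 0.09. Of 8 tested genes that break cysteine down or oxidise sulfide, 2 rose, among them the aminotransferase Got1 (log2 fold change 0.61), and 3 fell, among them the sulfurtransferase Tst (-0.29) and the persulfide dioxygenase Ethe1 (-0.26), in shares near those over all genes (26.6% and 27.1%).

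None of the 3 genes of glutathione synthesis (Gclc, Gclm, Gss) rose, whereas a gene for its breakdown showed the largest increase under the filter on level. Chac1, a gamma-glutamylcyclotransferase that degrades glutathione, lay at 2.71, 2.82 and 3.19 CPM in control and 179.7, 183 and 181 CPM in deprived libraries (log2 fold change 5.94, SE 0.0708, adjusted p = 1.97e-32), a 61.3-fold increase. Its relative Chac2 rose by 0.43 (adjusted p = 0.00104). Gclc, the catalytic subunit of the enzyme that sets the rate of glutathione synthesis, lay at 88.1, 88.2 and 83.4 CPM in control and 86.3, 86.6 and 86.1 CPM without cystine. The deprived libraries of Gclc lay within the range of the control libraries, and the log2 fold change was -0.01 (SE 0.0369, adjusted p = 0.883). Gclm, the modifier subunit, fell from 104 ± 5.71 CPM to 95.6 ± 2.08 CPM (log2 fold change -0.12, SE 0.0375, adjusted p = 0.00771), a call that was lost without control replicate 1 (log2 fold change -0.09, adjusted p = 0.0631). Gss, glutathione synthetase, was at 0.07 (adjusted p = 0.209). Gsr, which reduces oxidised glutathione, went from 128, 119.8 and 123 CPM to 103, 108 and 102 CPM and fell by 0.26 (adjusted p = 4.53e-06). Over the list of glutathione synthesis and breakdown, 2 of 13 tested genes rose and 4 fell, with a median of -0.01; without deprived replicate 3 the number that fell was 2. The share that fell is near that over all tested genes (27.1%) and is no result about the list.

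**Figure D2:**
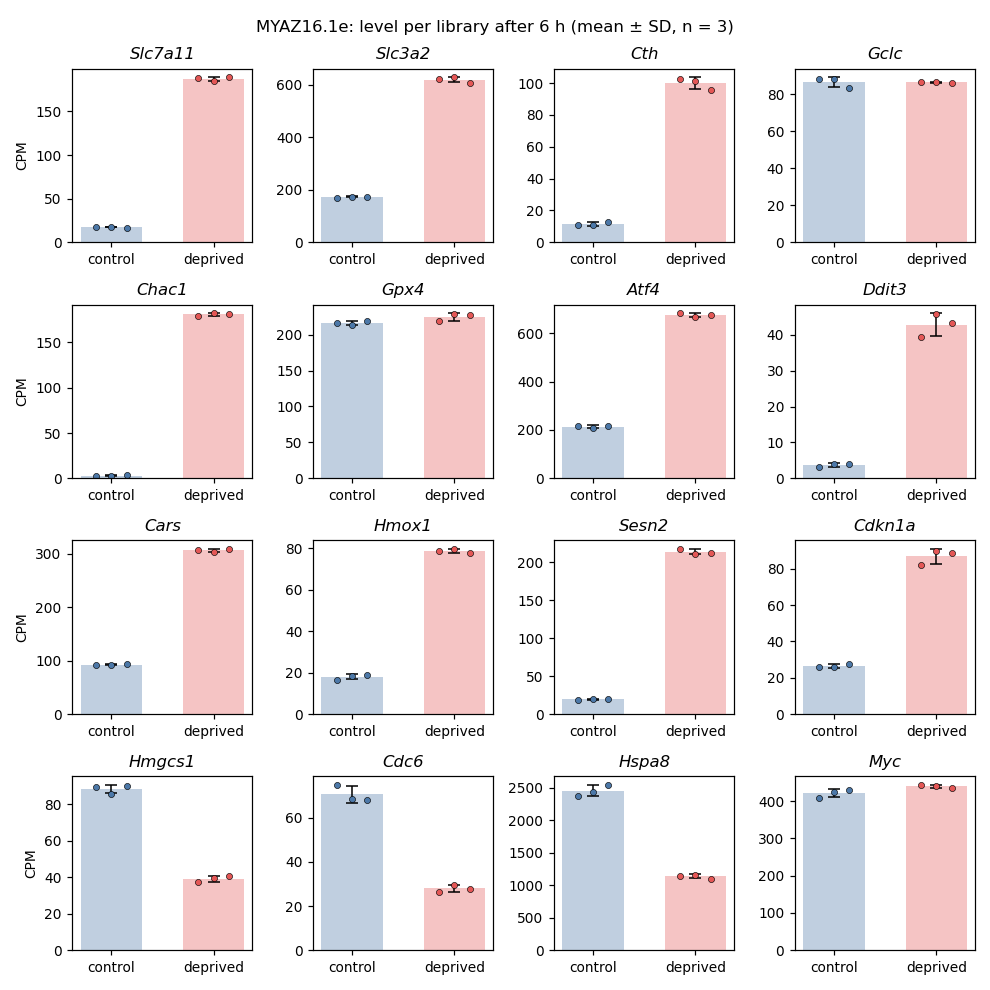
CPM of 16 genes in the 3 control and the 3 deprived MYAZ16.1e libraries. Bars give the mean, error bars the SD (n = 3) and points the single libraries, with axes from 0. Slc7a11, Slc3a2, Cth, Chac1, Atf4, Ddit3, Cars, Hmox1, Sesn2 and Cdkn1a lie apart and higher in deprived libraries, Hmgcs1, Cdc6 and Hspa8 lie apart and lower, and Gclc, Gpx4 and Myc were not called.

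The transcription factors of the ISR rose as a group: 8 of 10 tested rose, each by more than 2-fold, none fell, and the median log2 fold change was 1.58. Atf4 mRNA itself went from 218, 209 and 215 CPM to 685, 668 and 674 CPM (log2 fold change 1.65, SE 0.0273, adjusted p = 5.48e-29). Ddit3 (CHOP), a partner and target of Atf4, rose from 3.06, 3.85 and 4.04 CPM to 39.4, 45.9 and 43.4 CPM (log2 fold change 3.53, SE 0.0792, adjusted p = 1.27e-25). Atf3, a repressor of the same family, rose from 1.58 ± 0.102 CPM to 33.4 ± 1.38 CPM (log2 fold change 4.37, SE 0.0923, adjusted p = 2.73e-26). Ddit3 overlaps Mars on the opposite strand, and the strand setting of the counting is not given in the sources used here. Nupr1 rose by 3.30, Jdp2 by 1.77, Atf5 by 1.51, Cebpg by 1.27 and Cebpb by 1.06. Cebpa and Cebpd missed the threshold.

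Messages for the kinases upstream of Atf4 did not rise. GCN2 (Eif2ak4), the sensor of uncharged tRNA, lay at 46.4, 44.7 and 45.3 CPM in control and 39.1, 37.8 and 38.1 CPM after deprivation, with a log2 fold change of -0.25 (SE 0.0583, adjusted p = 0.000516). HRI (Eif2ak1) and PKR (Eif2ak2) fell by 0.30 and 0.26, and PERK (Eif2ak3), the kinase of the endoplasmic reticulum, was at 0.04 (SE 0.0690, adjusted p = 0.65). By contrast, Ppp1r15a (GADD34), the regulatory subunit that returns eIF2alpha to its unphosphorylated form, rose from 22.1, 22.0 and 23.6 CPM to 108, 116 and 115 CPM (log2 fold change 2.31, SE 0.0462, adjusted p = 7.97e-27). The constitutive subunit Ppp1r15b and Impact, an inhibitor of GCN2, each rose by 0.39. These values are of mRNA, and phosphorylation was not measured.

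Enzymes that make amino acids rose in part. Asns, asparagine synthetase, went from 158, 158 and 158 CPM to 721, 732 and 687 CPM (log2 fold change 2.17, SE 0.0283, adjusted p = 1.35e-31). The serine pathway rose at each step: Phgdh by 0.58, Psat1 by 0.67 and Psph, its last step, from 21.2, 19 and 21.4 CPM to 136, 146 and 137 CPM (log2 fold change 2.76, SE 0.0421, adjusted p = 8.07e-30). Psph overlaps Cct6a on the opposite strand. Mitochondrial folate enzymes rose, Shmt2 by 1.15, Mthfd2 by 1.82 and Aldh1l2, which oxidises formyltetrahydrofolate, from 15.7, 15.3 and 18.4 CPM to 264, 253 and 259 CPM (log2 fold change 3.95, SE 0.0418, adjusted p = 1.09e-33). Their cytosolic counterpart Shmt1 fell by 0.59. Proline synthesis rose through Aldh18a1 (log2 fold change 2.10) and Pycr1 (log2 fold change 1.95), and Gpt2, the mitochondrial alanine aminotransferase, went from 19.1, 20.1 and 20.1 CPM to 233, 228 and 232 CPM (log2 fold change 3.54, SE 0.0373, adjusted p = 1.09e-33). Glul, glutamine synthetase, fell by 0.50. Of the 25 tested genes of amino acid and one-carbon synthesis, 13 rose, 8 fell and 4 missed the threshold, with a median of 0.41.

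Amino acid transporters showed the same mixture, with 12 of 22 tested members higher, 4 lower and a median of 0.58. Besides Slc7a11, the glycine transporter Slc6a9 rose from 25.6, 23.4 and 25.4 CPM to 204, 199 and 205 CPM (log2 fold change 3.02, SE 0.0378, adjusted p = 6.47e-32). Slc7a5 (LAT1), which exchanges large neutral amino acids with Slc3a2, rose from 365 ± 6.52 CPM to 1157 ± 11.5 CPM (log2 fold change 1.66), the cationic carrier Slc7a1 by 1.48, the glutamine carriers Slc1a5 by 0.66 and Slc38a2 by 0.46. The arginine carrier Slc7a3 rose by 2.05 from a low level (10, 7 and 10 counts in control, 38, 33 and 38 counts after deprivation). Slc1a1 (EAAT3), a glutamate and cysteine carrier, passed the threshold with only 3, 1 and 3 counts in the deprived libraries against 0 in control, too few for a fold. The taurine transporter Slc6a6 went from 441, 463 and 444 CPM to 275, 287 and 289 CPM and fell by 0.67, and the mitochondrial glutamate carrier Slc25a22 fell by 0.53.

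Cytosolic aminoacyl-tRNA synthetases, which charge tRNA with their amino acids, rose in 16 of 20 cases, 12 of them by more than 2-fold, with a median of 1.11. The largest increase was that of the cysteinyl-tRNA synthetase Cars, from 91.5, 92.4 and 94.6 CPM to 307, 304 and 309.8 CPM (log2 fold change 1.72, SE 0.0255, adjusted p = 4.13e-30). Sars, Nars, Gars and Tars, for serine, asparagine, glycine and threonine, rose by 1.37, 1.36, 1.34 and 1.29. Qars fell by 0.28, Kars by 0.19 and Farsa by 0.15, and Dars missed the threshold. The 17 mitochondrial synthetases did not share this: 2 rose, 7 fell and 8 missed the threshold, with a median of -0.10. Lars2, nominally the largest decrease among them (-0.71, adjusted p = 0.0245), lay at 209, 88.7 and 84.0 CPM in control and at 79.3, 81.7 and 70.5 CPM in deprived libraries. Its highest value is that of control replicate 1, the library with the low mitochondrial share, and without it the log2 fold change was -0.17 (adjusted p = 0.569).

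Aars, for alanine, needs a caution. It lay at 309.7, 320.3 and 319 CPM in control and 804, 826 and 821 CPM after deprivation (log2 fold change 1.36, SE 0.0258, adjusted p = 1.92e-27). Exosc6 (ENSMUSG00000109941, chr8:111056339-111057664, plus strand), a subunit of the RNA exosome, is annotated wholly inside the end of Aars (chr8:111033144-111057664, plus strand). Exosc6 had 713, 738 and 1027 counts in control and 0 in each deprived library of MYAZ16.1e, and likewise 0 in the deprived libraries of Myc310, LM1 and LM1-LM. Reads in the shared stretch can be given to either gene, so that the call of Exosc6 is uncertain. The summed level of Aars and Exosc6 was 351 ± 5.23 CPM in control and 817 ± 11.1 CPM after deprivation (SD, n = 3), a log2 ratio of 1.22 against 1.37 for Aars alone.

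**Figure D3:**
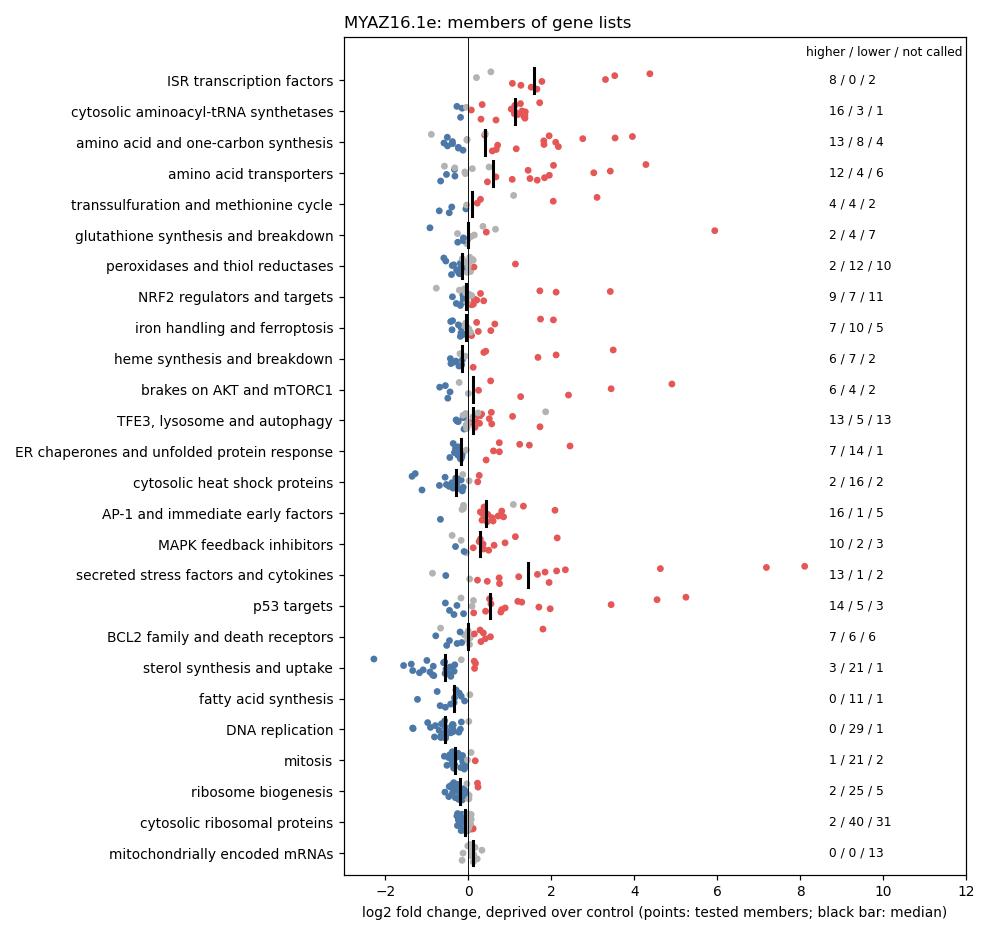
Log2 fold changes of the tested members of 26 gene lists in MYAZ16.1e, with members that rose in red, that fell in blue and that missed the threshold in grey. The black bar is the median of the list, the vertical line marks 0, and the numbers at the right count members that were higher, lower and not called. ISR transcription factors and cytosolic synthetases lie mostly to the right (medians 1.58 and 1.11), and sterol synthesis and DNA replication to the left (medians -0.57 and -0.56).

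Among 27 regulators and targets of NRF2 (Nfe2l2), the factor that answers oxidants, 9 rose and 7 fell, with a median of -0.05. These shares are near those over all tested genes (26.6% higher, 27.1% lower) and are no result about the list; single members follow. Hmox1, heme oxygenase, went from 16.6, 18.4 and 19 CPM to 78.8, 79.7 and 77.8 CPM (log2 fold change 2.11, SE 0.0432, adjusted p = 1.2e-26), and Osgin1, an oxidative stress-induced growth inhibitor, from 10.6 ± 0.374 CPM to 35.4 ± 1.73 CPM (log2 fold change 1.72, SE 0.0688, adjusted p = 4.19e-19). Nfe2l2 rose by 0.37. The classical target Nqo1, a quinone reductase, lay at 19.6, 19.7 and 17.9 CPM in control and 16.0, 18.9 and 19.8 CPM after deprivation (log2 fold change -0.07, SE 0.0928, adjusted p = 0.565), and Txnrd1, thioredoxin reductase, was at -0.03 (SE 0.0289, adjusted p = 0.395). Srxn1, which repairs peroxiredoxins, rose by 0.14 (adjusted p = 0.00339). Keap1, the repressor of NRF2, fell by 0.13, which did not hold without deprived replicate 1 (-0.08, adjusted p = 0.0686). The member that rose most, Slc7a11, is a known target of Atf4 as well as of NRF2.

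Peroxidases and thiol reductases fell in 12 of 24 cases, with 2 higher, 10 that missed the threshold and a median of -0.14. Prdx1, an abundant peroxiredoxin, went from 544, 552 and 563 CPM to 415, 426 and 416 CPM (log2 fold change -0.41, SE 0.0222, adjusted p = 9.26e-16). The glutaredoxin Glrx fell by 0.54, and the lipid hydroperoxidase Gpx4, which guards against ferroptosis, was at 216 ± 2.99 CPM in control and 225 ± 5.60 CPM after deprivation (log2 fold change 0.05, SE 0.0313, adjusted p = 0.171). Txnip, an inhibitor of thioredoxin, rose from 67.3, 73.9 and 70.7 CPM to 151, 162 and 154 CPM (log2 fold change 1.13, SE 0.0402, adjusted p = 2.07e-20). In the list of iron handling and ferroptosis, 7 of 22 rose and 10 fell, beside 26.6% and 27.1% of all genes (median -0.07). Ptgs2, a prostaglandin synthase often used as a mark of ferroptosis, rose from 7.66, 5.87 and 7.31 CPM to 29.1, 27.4 and 30.3 CPM (log2 fold change 2.05, SE 0.0781, adjusted p = 1.26e-19), and Gch1, which makes tetrahydrobiopterin, rose by 1.74. Acsl4, which loads membranes with oxidisable lipids, was at 0.01 (adjusted p = 0.789).

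Of 15 genes of heme synthesis and breakdown, 6 rose and 7 fell, beside 26.6% and 27.1% of all genes; Cpox, a late synthetic enzyme, rose from 29.9 ± 1.33 CPM to 95.6 ± 4.97 CPM (log2 fold change 1.68). Among genes of the pentose phosphate path and NADPH, 1 of 15 rose and 8 fell, against the same shares, with Idh1, the cytosolic isocitrate dehydrogenase, down by 0.69. Of 11 tested metallothioneins and zinc transporters 5 rose and 3 fell, beside 26.6% and 27.1% of all genes. The cysteine-rich metallothioneins Mt1 and Mt2, which bind zinc, rose by 0.40 and 0.53, the zinc exporter Slc30a1 by 1.27, and the zinc importer Slc39a10 went from 87.0, 85.4 and 86.3 CPM to 41.0, 42.0 and 42.6 CPM and fell by 1.05. The transporters Slc30a5 and Slc30a7 also fell.

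Genes of the endoplasmic reticulum split. Herpud1, a part of its degradation machinery, rose from 31.5, 32.0 and 34.5 CPM to 177, 179.8 and 182 CPM (log2 fold change 2.45, SE 0.0376, adjusted p = 8.87e-30), the sensor Ern1 (IRE1) by 1.47 and its target factor Xbp1 by 1.24. The chaperone BiP (Hspa5) rose from 997 ± 4.86 CPM to 1347 ± 37.0 CPM (log2 fold change 0.43). Most others fell: 14 of 22 members of the unfolded protein response list were lower, 7 higher, with a median of -0.17, and the calcium-binding chaperone Calr went from 837, 835 and 815 CPM to 617, 614 and 599.8 CPM (log2 fold change -0.45, SE 0.0232, adjusted p = 2.54e-16).

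Cytosolic heat shock proteins fell in 16 of 20 cases, with 2 higher and a median of -0.29. Hspa8, the constitutive Hsp70, went from 2379, 2438 and 2549 CPM to 1146, 1164 and 1101 CPM (log2 fold change -1.12, SE 0.0280, adjusted p = 2.2e-24). The inducible Hsp70 genes Hspa1a and Hspa1b fell by 1.28 and 1.36. As their sequences are nearly identical and reads can be split between them, their sum is the safer value, 74.6 ± 2.62 CPM in control and 29.8 ± 0.511 CPM after deprivation (log2 ratio -1.32). Hspa8 summed with its near copy Gm15459 gave a log2 ratio of -1.10. The co-chaperone Dnaja1 fell by 0.70 and Hsp90aa1 by 0.19.

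Immediate early factors, which answer growth factor and stress kinases, rose in 16 of 22 cases, with a median of 0.42. Klf4, a growth-restraining factor, went from 7.77, 8.64 and 9.99 CPM to 40.1, 33.3 and 40.1 CPM (log2 fold change 2.09, SE 0.107, adjusted p = 1.94e-16). Jun rose from 56.8 ± 3.42 CPM to 93.9 ± 3.03 CPM (log2 fold change 0.72), Klf6 by 0.85 and Egr1 by 1.33. Fos lay at 0.852, 0.610 and 0.578 CPM in control and 0.419, 0.804 and 0.642 CPM after deprivation (log2 fold change -0.12, SE 0.381, adjusted p = 0.829), with the media overlapping. Srf, a factor that drives several of them, fell by 0.67. Inhibitors that feed back on MAP kinases rose in 10 of 15 cases (median 0.29), led by the JNK phosphatase Dusp8, from 4.81, 4.74 and 4.89 CPM to 21.6, 20.8 and 21.7 CPM (log2 fold change 2.14, SE 0.0854, adjusted p = 4.04e-19). Dusp1 rose by 0.88 and Spry4 by 1.13.

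Secreted stress factors and cytokines rose in 13 of 16 tested cases, with a median of 1.44; with the low genes removed (at least 10 counts in every library) 7 rose. Vegfa, the angiogenic factor, went from 50.2, 54.6 and 52.8 CPM to 212, 205 and 194 CPM (log2 fold change 1.95, SE 0.0411, adjusted p = 2.73e-26). Several others came from near 0. Fgf21, a hormone of amino acid shortage, had no count in the control libraries and 28, 40 and 36 counts in the deprived libraries, at least 36.3-fold higher when the floor is set at 3 counts over the control group. Gdf15, a hormone of cell stress, had 1 count in control and 54, 65 and 75 counts after deprivation, a ratio of 203 (95% interval 36.0 to 8057, counting error only). Stc2, a secreted glycoprotein, had 2, 2 and 2 and then 40, 46 and 66 counts, a ratio of 26.5 (11.9 to 73.3). Il23a and Ccl20 rose by 2.13 and 2.34 from under 13 counts per library. Cxcl5, a neutrophil chemokine, fell by 0.54.

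A pair of genes outside the lists also came from the floor, with no more than 3 counts in each control library and over 30 in each deprived library. Soat2, which esterifies cholesterol, had 1 count over the control group and 91, 95 and 108 counts in the deprived libraries, a ratio of 308 (95% interval 54.8 to 12188). Rab39b, a small GTPase of vesicle traffic, had 3, 1 and 3 and 208, 203 and 206 counts, a ratio of 92.2 (44.5 to 230). For these genes the fitted fold depends on the prior count and is not given. The bounds of Fgf21 and of other list members with no count in control lie above the medians of their lists, which are therefore the same with these genes at their bounds.

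Genes that restrain AKT and mTORC1, the kinase that couples amino acids to growth, included some of the largest increases of the line. Trib3, a pseudokinase that binds AKT, went from 12.9, 10.8 and 11.8 CPM to 359, 361 and 349 CPM (log2 fold change 4.90, SE 0.0515, adjusted p = 1.09e-33). Sesn2, a leucine sensor that holds mTORC1 inactive, rose from 19.1, 20.2 and 19.4 CPM to 218, 211 and 212 CPM (log2 fold change 3.44, SE 0.0440, adjusted p = 9.49e-32). Ddit4 (REDD1) rose by 2.41 and Eif4ebp1, the inhibitor of cap-dependent translation, by 1.26. Other members fell, Trib2 by 0.69 and Sesn1 by 0.55, and the list as a whole had 6 of 12 higher, 4 lower and a median of 0.12. In the list of TFE3, lysosome and autophagy, 13 of 31 rose and 5 fell (median 0.11), with the autophagy receptor Sqstm1 (p62) from 283, 281 and 285 CPM to 926, 925 and 968 CPM (log2 fold change 1.73, SE 0.0267, adjusted p = 1.1e-29), Mitf at 1.07 and Tfe3 at 0.56.

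Hypoxia targets rose in 5 of 11 cases, with 2 lower and a median of 0.03, where 26.6% of all genes rose and 27.1% fell. Ndrg1, a stress-responsive gene, rose by 2.18 and the oxidase Ero1a, which makes disulfide bonds, by 1.36. Egln3, the oxygen-sensing hydroxylase that hypoxia induces, fell by 0.55. Among 18 genes of glycolysis 4 rose, near the share of all genes, and 10 fell, with Hk2, hexokinase, at 0.72 and Slc16a3, the lactate exporter, at -0.78.

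Targets of p53 rose in 14 of 22 cases, 7 of them by more than 2-fold, with 5 lower (Trp53, Sesn1, Tigar, Ei24 and Aen) and a median of 0.53. The list includes Sesn2 and Gadd45a, which also stand on other lists here, and Eda2r, which had no count in control. Cdkn1a (p21), which arrests the cell cycle, went from 25.7, 26.2 and 27.7 CPM to 82.2, 89.9 and 88.5 CPM (log2 fold change 1.70, SE 0.0376, adjusted p = 8.75e-26). Mdm2, the ligase that removes p53, rose from 74.1, 69.6 and 68.8 CPM to 118, 120.0 and 128 CPM (log2 fold change 0.78, SE 0.0364, adjusted p = 1.9e-17), Zmat3, an RNA-binding target, by 0.89, Trp53inp1 by 1.19 and Phlda3, a repressor of AKT, by 0.42. Gadd45a, which is also a target of Atf4, went from 5.91, 6.43 and 5.03 CPM to 132, 135 and 135 CPM (log2 fold change 4.55, SE 0.0744, adjusted p = 4.69e-29), and overlaps E230016M11Rik on the opposite strand. Plk3 rose by 1.97 and Rrm2b, the p53-inducible ribonucleotide reductase subunit, by 1.29. Ccng1 rose by 0.13, and Trp53 itself fell from 320.2 ± 9.58 CPM to 253 ± 5.21 CPM (log2 fold change -0.35).

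Of the CDK inhibitors at the Ink4 locus, Cdkn2b (p15) rose from 22.2, 23.1 and 21 CPM to 41.5, 41.6 and 41.9 CPM (log2 fold change 0.91, SE 0.0827, adjusted p = 3.3e-08). Cdkn2a fell by 0.15 (adjusted p = 0.0084), a call lost without control replicate 1 (-0.12, adjusted p = 0.0581). Of 13 genes of the GADD45 family and growth arrest 5 rose and 3 fell, with a median of 0.02, beside 26.6% and 27.1% of all genes; Gadd45g rose by 0.68 and Gadd45b was at 0.02 (adjusted p = 0.868). In the BCL2 family, 7 of 19 rose and 6 fell, beside 26.6% and 27.1% of all genes, which is no result about the family. Bbc3 (PUMA), a killer protein of the BH3-only kind, rose from 2.81, 3.85 and 3.87 CPM to 10.7, 12.9 and 13.6 CPM (log2 fold change 1.80, SE 0.113, adjusted p = 2.84e-14), whereas Bok fell by 0.79, and Bax was at 0.04 (adjusted p = 0.376).

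Sterol synthesis fell. Of 25 tested genes of sterol synthesis and uptake 21 fell, 6 of them by more than 2-fold, and the median was -0.57. Insig1, which retains the sterol sensor in the endoplasmic reticulum and is itself a target of SREBP2, went from 44.6, 40.7 and 39.3 CPM to 12.3, 13.9 and 16.0 CPM (log2 fold change -1.56, SE 0.0903, adjusted p = 3.71e-15). Hmgcs1, the first committed enzyme of the pathway, lay at 89.5, 85.5 and 89.8 CPM and then at 37.4, 39.3 and 40.6 CPM (log2 fold change -1.18, SE 0.0555, adjusted p = 2.53e-17). The isomerase Idi1 went from 93.2, 79.7 and 75.6 CPM to 32.2, 29.2 and 36.4 CPM and fell by 1.34, and the late enzyme Hsd17b7 fell by 1.38. The regulator Srebf2 fell by 0.42. The late enzymes Tm7sf2 and Msmo1 and the regulator Insig2 passed the threshold with increases of 0.17, 0.15 and 0.14, and each of these calls was lost without at least 1 of the libraries.

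Fatty acid synthesis moved with it: 11 of 12 tested genes fell, none rose and the median was -0.34. Elovl6, which lengthens palmitate, went from 124, 123 and 121 CPM to 48.6, 57.3 and 51.8 CPM (log2 fold change -1.23, SE 0.0537, adjusted p = 4.08e-18). Fasn, fatty acid synthase, fell by 0.68 and the desaturase Scd2 by 0.55. Of 9 lipoprotein receptors 3 rose and 5 fell (all genes 26.6% and 27.1%). Vldlr, the receptor for very low density lipoprotein, rose from 3.51, 2.86 and 2.58 CPM to 62.8, 59.7 and 57.2 CPM (log2 fold change 4.34, SE 0.0981, adjusted p = 3.22e-24), and the related Lrp8 fell from 85.0 ± 2.31 CPM to 48.5 ± 0.342 CPM (log2 fold change -0.82).

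Genes of DNA replication fell nearly throughout: 29 of 30 tested were lower, none higher, with a median of -0.56. Cdc6, which loads the replicative helicase, went from 75, 68.7 and 68.2 CPM to 26.5, 29.6 and 27.8 CPM (log2 fold change -1.34, SE 0.0459, adjusted p = 8.6e-21), and Ccne2, the cyclin of S phase entry, from 74.6, 82.5 and 80.3 CPM to 30.8, 32.6 and 31.5 CPM (log2 fold change -1.33, SE 0.0577, adjusted p = 3.17e-18). The helicase subunit Mcm5 and the clamp Pcna fell by 0.67 and 0.66. Rrm2, the ribonucleotide reductase subunit of S phase, went from 568, 572 and 581 CPM to 394, 402 and 385 CPM (log2 fold change -0.55, SE 0.0259, adjusted p = 2.7e-17). Of the mitotic genes 21 of 24 fell and 1 rose, with a median of -0.33. Mad2l1, a checkpoint protein, fell by 0.58, Ccna2 by 0.52, Cdk1 by 0.47 and Ccnb1 from 304, 304 and 301 CPM to 240.4, 232 and 221 CPM (log2 fold change -0.39, SE 0.0298, adjusted p = 1.83e-12). The exception, the centromere motor Cenpe, rose by 0.17.

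Ribosome biogenesis fell in 25 of 32 cases, with 2 higher (Rrp12 and Noc3l) and a median of -0.20; Nhp2, a component of the box H/ACA particle, fell by 0.56. Of 73 cytosolic ribosomal proteins 40 fell, 2 rose and 31 missed the threshold, with changes between -0.28 and 0.11. None of the 13 mitochondrially encoded mRNAs was called, but with no filter on low genes 9 were higher and 2 lower, and without 1 of the libraries up to 2 were called. Their summed level ranged from 13226 to 20270 CPM in control and from 18547 to 19288 CPM after deprivation, the lowest being control replicate 1. The fit with no filter gave some genes far smaller adjusted p at nearly the same fold. For Lars2 the adjusted p was 9.6e-78 (log2 fold change -0.72) without the filter and 0.0245 (-0.71) with it. The cause was not tested.

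Myc, the oncogene of this tumour model, was at 409, 426 and 429 CPM in control and 444, 441 and 436 CPM after deprivation. The deprived libraries all lay above the control libraries, but by less than the spread within them, and the log2 fold change was 0.06 (SE 0.0347, adjusted p = 0.177). With only the 6 MYAZ16.1e libraries in the model it passed the threshold (0.06, adjusted p = 0.0412). In its network, Mxd4, a repressor, rose by 0.74 and Mxd3 fell by 0.88. In polyamine synthesis 5 of 11 rose and 4 fell (all genes 26.6% and 27.1%): the rate-limiting Odc1 was at 0.05 (adjusted p = 0.0528), and Amd1, which decarboxylates S-adenosylmethionine, went from 273, 268 and 281 CPM to 156, 158 and 154 CPM (log2 fold change -0.82, SE 0.0286, adjusted p = 1.36e-20).

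Matrix genes rose in 12 of 20 cases (3 lower, median 0.23), with fibronectin (Fn1) from 365, 403 and 376 CPM to 604, 569 and 571 CPM (log2 fold change 0.60, SE 0.0372, adjusted p = 1.62e-14) and the laminin chain Lamb3 at 1.27. Of 19 feedback targets of Hippo, TGF-beta, Notch and Wnt 11 rose and 5 fell (median 0.37). The Notch ligand Jag1 rose by 0.84. Interferon-stimulated genes were mostly not called, with 3 of 13 higher, and in class I antigen presentation 1 of 12 rose and 4 fell; 26.6% of all genes rose and 27.1% fell, and neither count is a result about its list.

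The response of MYAZ16.1e was then set against that of the metastatic lineage. Its log2 fold changes had an SD of 0.67 over all tested genes, and those of Myc310, LM1 and LM1-LM had SDs of 0.92, 1.07 and 1.1. Of the 507 genes that rose by more than 2-fold in MYAZ16.1e, 419, 409 and 404 rose in Myc310, LM1 and LM1-LM, where 32.8%, 35.8% and 36.5% of all tested genes rose. Of the 110 that fell by more than 2-fold, 73, 73 and 67 fell in these lines, where 33.9%, 35.3% and 35.9% of all genes fell. The difference between the MYAZ16.1e response and the mean response of the 3 lines passed the threshold for 3697 genes in the positive direction (27.6%) and 3759 in the negative direction (28.1%). Each count of differences over a list is to be read against these shares.

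Several ISR genes rose less in MYAZ16.1e. Atf4 rose by 1.65 against 2.16, 2.52 and 2.61 in Myc310, LM1 and LM1-LM, a difference of -0.77 (adjusted p = 9.37e-19). For Atf3 the values were 4.37 against 8.02, 8.97 and 9.62 in Myc310, LM1 and LM1-LM (difference -4.50, adjusted p = 3.71e-17), though it started from 1.58 CPM in MYAZ16.1e and from 0.220 to 0.474 CPM in the others. Of the 10 ISR factors 8 differed in the negative direction and 1 in the positive, and of the 20 cytosolic synthetases 15 and 3. For the genes of cysteine supply the differences were smaller in value. Chac1 rose by 5.94 against 5.81, 6.41 and 6.31 in Myc310, LM1 and LM1-LM (difference -0.24, adjusted p = 0.125), Cth by 3.10 against 3.01, 3.32 and 3.34 in Myc310, LM1 and LM1-LM (difference -0.12, adjusted p = 0.131), and Slc7a11 by 3.42 against 2.94, 3.97 and 3.93 in Myc310, LM1 and LM1-LM (difference -0.20, adjusted p = 0.00639). Sesn2 rose more in MYAZ16.1e, 3.44 against 2.40, 2.29 and 2.26 in Myc310, LM1 and LM1-LM, a difference of 1.12 (adjusted p = 1.91e-17).

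Immediate early genes rose less, 14 of 22 differing in the negative direction and 2 in the positive. Jun rose by 0.72 against 2.25, 2.44 and 2.33 in Myc310, LM1 and LM1-LM (difference -1.62, adjusted p = 4.95e-21) and Klf6 by 0.85 against 2.59, 3.18 and 3.20 in Myc310, LM1 and LM1-LM (difference -2.14, adjusted p = 1.81e-26). The abundant Hspa5 showed the same direction, 0.43 against 1.14, 1.62 and 1.62 in Myc310, LM1 and LM1-LM (difference -1.03, adjusted p = 3.03e-24). Hmox1 rose by 2.11 against 3.03, 3.85 and 3.83 in Myc310, LM1 and LM1-LM (difference -1.45, adjusted p = 6.18e-20).

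Targets of p53 differed the other way in 14 of 22 cases, with 6 in the negative direction (all genes 27.6% positive and 28.1% negative). Sesn2 and Eda2r, which had no count in MYAZ16.1e control libraries, are among the 14. The median log2 fold change of the 22 was 0.53 in MYAZ16.1e and 0.02, 0.13 and 0.20 in Myc310, LM1 and LM1-LM. Zmat3 rose by 0.89 in MYAZ16.1e and was at -0.09, -0.23 and -0.21 in Myc310, LM1 and LM1-LM (difference 1.06, adjusted p = 5.2e-16). Phlda3 rose by 0.42 against -0.18, -0.53 and -0.63 in Myc310, LM1 and LM1-LM (difference 0.86, adjusted p = 7.37e-17), and Ccng1 by 0.13 against -0.60, -0.70 and -0.63 in Myc310, LM1 and LM1-LM (difference 0.77, adjusted p = 4.11e-16). In control medium Zmat3 and Ccng1 lay lower in MYAZ16.1e than in the lineage: Zmat3 had 32.8 ± 1.72 CPM in MYAZ16.1e and 89.0, 104 and 99.3 CPM in Myc310, LM1 and LM1-LM, and Ccng1 had 75.5 ± 3.92 CPM and 314, 398 and 391 CPM in Myc310, LM1 and LM1-LM. Cdkn1a rose by 1.70 against 1.23, 1.64 and 1.64 in Myc310, LM1 and LM1-LM (difference 0.19, adjusted p = 0.000209). The list was not uniform: Gadd45a rose by 4.55 against 5.48, 6.74 and 7.75 in Myc310, LM1 and LM1-LM (difference -2.11, adjusted p = 1.72e-14) and Plk3 by 1.97 against 3.36, 4.20 and 4.41 in Myc310, LM1 and LM1-LM (difference -2.02, adjusted p = 2.19e-22). Cdkn2a and Cdkn2b had 0 counts in the libraries of Myc310, LM1 and LM1-LM, so that no difference can be given for them.

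Mitotic genes differed in the negative direction in 23 of 24 cases and in the positive direction in 1. Their median log2 fold change was -0.33 in MYAZ16.1e and 0.05, 0.15 and 0.25 in the other lines (Myc310, LM1, LM1-LM), where 12, 15 and 18 of the 24 rose and 10, 5 and 4 fell. Over all tested genes 32.8%, 35.8% and 36.5% rose and 33.9%, 35.3% and 35.9% fell in these lines. Ccnb1 fell by 0.39 in MYAZ16.1e and was at 0.19, 0.57 and 0.74 in Myc310, LM1 and LM1-LM (difference -0.90, adjusted p = 2.82e-19). Top2a, the topoisomerase of mitotic chromosomes, fell by 0.10 in MYAZ16.1e and was at 0.46, 0.77 and 0.80 in Myc310, LM1 and LM1-LM (difference -0.77, adjusted p = 2.59e-21). Of the 30 replication genes 14 differed in the positive and 7 in the negative direction (all genes 27.6% and 28.1%), with medians of -0.56 against -0.64, -0.69 and -0.65. Myc was at 0.06 against -0.32, -0.88 and -1.26 in Myc310, LM1 and LM1-LM, a difference of 0.88 (adjusted p = 1.62e-17); with upper-quartile scaling the median difference over all genes moved from 0.00 to 0.07 and the split of differences from 3697 and 3759 to 4396 and 3089. Sqle, the squalene epoxidase of sterol synthesis, fell by 0.46 in MYAZ16.1e and was at 0.42, 0.64 and 0.73 in Myc310, LM1 and LM1-LM (difference -1.05, adjusted p = 1.98e-17).

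**Figure D4:**
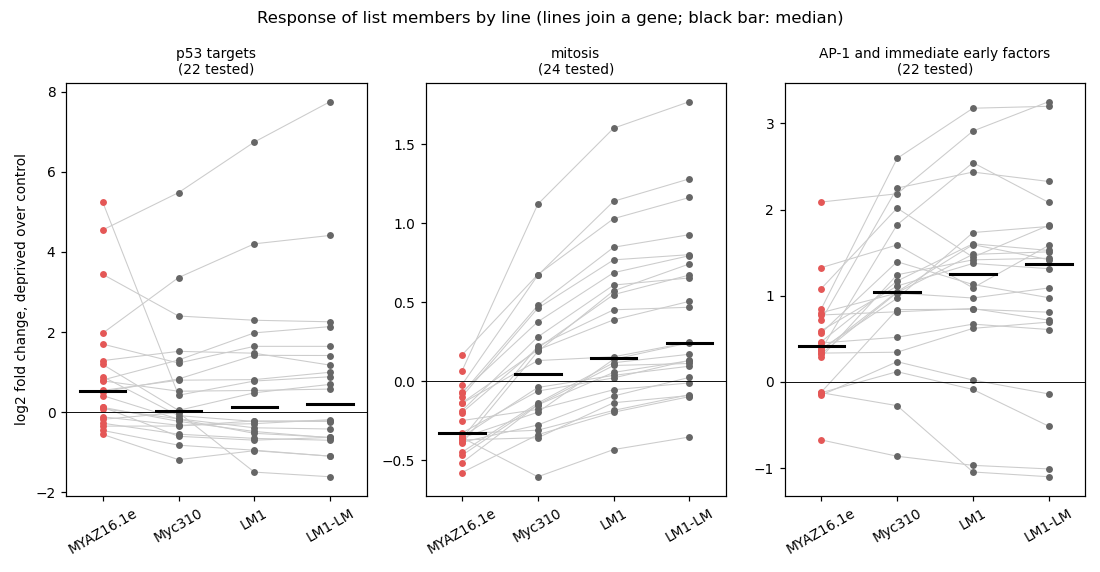
Log2 fold changes of the tested p53 targets (22), mitotic genes (24) and immediate early factors (22) in MYAZ16.1e (red) and in Myc310, LM1 and LM1-LM (grey). Thin lines join a gene across lines, black bars are medians, and the vertical scales differ between panels. The median of the mitotic genes is below 0 in MYAZ16.1e alone (-0.33), that of the p53 targets is highest there (0.53), and that of the immediate early factors lowest (0.42).

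Some genes went in opposite directions. In all, 97 genes (0.724%) rose in MYAZ16.1e and fell in each of the 3 lines, and 183 (1.37%) did the reverse. Of those that rose, Sema4f, a semaphorin, went from 1.05, 0.798 and 0.544 CPM to 1.95, 1.80 and 2.25 CPM (log2 fold change 1.35, SE 0.256, adjusted p = 4.32e-05) and was at -1.35, -1.44 and -1.45 in Myc310, LM1 and LM1-LM. Afap1l1, an actin-associated protein, rose by 2.06 from 9, 10 and 20 counts, a low level beside 174, 118 and 103 CPM in Myc310, LM1 and LM1-LM, where it was at -0.27, -1.01 and -1.39 in Myc310, LM1 and LM1-LM. Of those that fell, Plk4, the kinase of centriole duplication, went from 97.4, 97.7 and 100.5 CPM to 70.5, 70.6 and 71.0 CPM (log2 fold change -0.49, SE 0.0317, adjusted p = 5.92e-14) and was at 0.16, 0.19 and 0.20 in Myc310, LM1 and LM1-LM. Rdh11, a retinal reductase, fell by 0.52 and was at 0.24, 0.55 and 0.70 in Myc310, LM1 and LM1-LM, and Gins3, a subunit of the replicative helicase complex, fell by 0.57 and was at 0.23, 0.29 and 0.37 in Myc310, LM1 and LM1-LM.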

How the data were processed

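Gene counts of 45 libraries were deposited by the authors as whole numbers, made with the nf-core RNAseq pipeline from paired-end polyA libraries (NEBNext Ultra II Directional). The submitters' processing notes name STAR, RSEM, GRCm38, R 4.2.2 and DESeq2 1.38.3. The annotation release and strand setting are not given in the sources used here. Counts of 13400 genes kept by filterByExpr were normalised by TMM and tested with edgeR's quasi-likelihood test (edgeR 4.0.16, limma 3.58.1, R 4.3.3) over 24 libraries in 8 groups (4 lines, control and deprived at 6 h), so that these groups share 1 estimate of spread. P-values were adjusted by Benjamini-Hochberg over all tested genes, with a threshold of 0.05. The SE of a log2 fold change is its absolute value divided by the square root of the test's F statistic. It therefore rests on the fit of all 24 libraries. Log2 CPM values use a prior count of 2 and fold changes edgeR's default prior count. The difference between lines is a contrast, the response of MYAZ16.1e minus the mean of the other 3. Scripts were tested on simulated data.

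The genes, lists and comparisons were chosen with earlier results of these data known, and the lists are described by counts and medians with no set test. Named were the 15 largest changes in each direction (mean log2 CPM of at least 3 over 6 libraries, no overlap between media), list members, regulators of cysteine supply, the 8 largest differences in each direction (mean log2 CPM of at least 3 over 24 libraries), the 5 largest opposite changes in each direction, and genes with no more than 3 counts in each library of a medium and over 30 in each of the other. Against a group with 0 counts a ratio is a bound computed with a floor of 3 counts over the group. Against a group with at least 1 count it is the ratio of the counts themselves, with an exact 95% interval that covers counting error only, and the bounds and ratios are not to be ranked against each other. Replicate numbers occur in both media: the correlations of same-numbered deviations were 0.314, -0.077 and -0.0755, so that the numbers were not taken as pairs. Alternatives were RLE and upper-quartile normalisation, DESeq2 1.42.0, no filter, a stricter filter, equal depth, the 6 libraries alone, a replicate block and leaving out each library. Positions are from GENCODE release 21 on GRCm38 (28407 of 28454 identifiers matched) and promoters from RefSeq on GRCm38.p6. The other libraries of the series, and Emcn, Cldn5, Cd3e, Adgre1, Cd8a, Lep, Csn1s1, Csn1s2a, Csn2 and Wap from the marker lists, were not used here, and some genes are not reported here.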

Additional observations from a re-analysis of the deposited data

Results flagged for a closer look

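The response of MYAZ16.1e differed from the mean response of Myc310, LM1 and LM1-LM, by a test of the difference itself, for 3697 genes in the positive direction and 3759 in the negative direction of 13400 tested. The genes below were singled out because this difference was among the largest, or because MYAZ16.1e moved against each of the other lines, and the value in parentheses after a gene is its difference of log2 fold changes.

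With mean log2 CPM over the 24 libraries held to 3 or more, the largest positive differences were those of Eda2r (4.55), a death receptor induced by p53, Afap1l1 (2.95), Kcnab2 (2.51), a potassium channel subunit, Ung (2.26), Tbc1d4 (1.97), a regulator of glucose transporter traffic, Slco4a1 (1.94), a transporter of organic anions, Camkk1 (1.91), a calcium-dependent kinase, and Sigirr (1.89), an inhibitory receptor. Eda2r, Afap1l1, Kcnab2, Slco4a1 and Sigirr are low in MYAZ16.1e, in part near the floor, and passed this filter only through the other lines, where they are higher, so that their rank depends on the filter and on folds near the floor. Eda2r had no count in the control libraries of MYAZ16.1e and 4, 7 and 3 counts in the deprived libraries, at least 4.88-fold higher, and 28.4, 35.4 and 34.5 CPM in Myc310, LM1 and LM1-LM in control medium. Kcnab2 lay at 0.301, 0.610 and 0.238 CPM in control and 0.651, 1.32 and 0.842 CPM in deprived MYAZ16.1e libraries and Slco4a1 at 0.651, 0.845 and 0.578 CPM and 0.512, 0.236 and 0.522 CPM. For Ung the difference is between decreases, -1.26 in MYAZ16.1e and -2.59, -4.05 and -3.94 in Myc310, LM1 and LM1-LM.

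Under the same filter on level, the largest negative differences were those of Serpinb2 (-3.14), an inhibitor of plasminogen activation, Cdsn (-2.78), an epidermal adhesion protein, Areg (-2.64), a ligand of the EGF receptor, Ankrd1 (-2.36), a target of YAP, Klf6 (-2.14), Gadd45a (-2.11), Adamts1 (-2.02), a secreted protease, and Plk3 (-2.02). Areg is low in MYAZ16.1e and passed the filter on level only through the other lines. It went from 1.20, 0.845 and 1.02 CPM to 2.93, 3.55 and 3.29 CPM in MYAZ16.1e (log2 fold change 1.67, SE 0.174, adjusted p = 1.88e-09) and was at 3.85, 4.67 and 4.39 in Myc310, LM1 and LM1-LM. Ankrd1 was at 0.86 in MYAZ16.1e and 2.57, 3.51 and 3.58 in Myc310, LM1 and LM1-LM. Serpinb2 was at 0.99 (adjusted p = 3.15e-09) and 3.78, 4.20 and 4.39 in Myc310, LM1 and LM1-LM.

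Genes higher in deprived MYAZ16.1e libraries and lower in each of the other lines were Cd28 (difference 5.45), a costimulatory receptor of T cells, Gm37795 (3.95), Slc16a6 (2.16), a monocarboxylate carrier, Sema4f (2.77) and Afap1l1. Several rest on few counts in MYAZ16.1e: Cd28 had 0, 0 and 0 counts in control and 2, 0 and 2 counts after deprivation, Gm37795 had 1, 1 and 1 and 11, 11 and 6, a ratio of 9.76 (95% interval 3.02 to 50.2), and Slc16a6 had 5, 3 and 3 and 11, 3 and 15. The call of Cd28 in MYAZ16.1e (adjusted p = 0.0398) was lost in 8 settings (highest adjusted p 0.106) and that of Slc16a6 (adjusted p = 0.0112) without control replicate 3 or deprived replicate 3 (highest 0.121), so that their opposite direction is uncertain. The fitted differences of Cd28, Gm37795 and Eda2r depend on the prior count and are no bound. Genes lower in MYAZ16.1e and higher in each of the other lines were Gins3 (-0.87), Rdh11 (-1.01), Plk4 (-0.67), Gm13415 (-1.39) and Gm4739 (-1.06). Slc16a6 overlaps Amz2 and Arsg, and Gm13415 overlaps Pax8, on the opposite strand.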

How the results depend on the processing

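Of 13400 genes, 7195 changed in MYAZ16.1e and 617 of these by more than 2-fold, and neither count moved by over 1.5 times under DESeq2 (3364 higher, 3555 lower), RLE or upper-quartile normalisation, no filter, equal depth or the 6 libraries alone. With at least 10 counts in every library 281 genes changed by more than 2-fold, 246 higher and 35 lower, against 507 and 110; the filter itself removes genes that start or end near 0. Leaving out 1 library gave 3184 to 3256 higher and 3373 to 3508 lower genes, for genes changed more than 2-fold in MYAZ16.1e 482 to 519 higher and 105 to 122 lower, and 3457 to 3548 positive and 3564 to 3663 negative differences from the other lines. With upper-quartile scaling 58.7% of the called differences were positive, against 49.6%. With a replicate block 7011 genes changed (3460 higher, 3551 lower), 487 and 103 of them by more than 2-fold, with 3589 and 3708 differences; 2 of 6 samples correlated best with their own number, and the block was no more than a shared number.

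For 211 genes 2864 of 2923 values kept their direction and their side of the threshold, and for the 25 tested differences 315 of 315 did. Of 98 counts over lists, 1321 of 1372 values stayed within 1.5 times. Leaving out 1 library turned the direction of 5 genes that were not called, with ranges over the libraries left out of -0.33 to 0.087 for Fos, -0.0016 to 0.019 for Vim, -0.012 to 0.019 for Acsl4, -0.14 to 0.011 for Nqo1 and -0.018 to 0.081 for Eif2ak3. The calls of Msmo1, Tm7sf2 and Insig2 were lost in several settings (highest adjusted p 0.299, 0.241 and 0.371), those of Cd28 in 8 (highest 0.106), that of Slc16a6 without control replicate 3 or deprived replicate 3 (highest 0.121), that of Lars2 without control replicate 1 or deprived replicate 3 and under DESeq2, those of Cdkn2a and Gclm without control replicate 1 (0.0581 and 0.0631), that of Keap1 without deprived replicate 1 (0.0686) and that of Krt18 without control replicate 1 or deprived replicate 2 (highest 0.0508). Myc passed the threshold with the 6 libraries alone (adjusted p = 0.0412), Odc1 under 3 settings (lowest 0.0393), Cebpa under 3 (lowest 0.0261) and Dars under 1 (0.0317). With no filter 9 mitochondrially encoded mRNAs were higher and 2 lower, against none. The cause of these changes was not tested. Depth limits, among others, Cbs, Slc1a1, Eda2r, Cd28, Gm37795 and Slc16a6, which had under 20 counts in each MYAZ16.1e library.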

Other observations

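Some of the sharpest increases lie outside the rule for naming genes, because their mean level over the 6 libraries is lower, and they were chosen after their values were seen. Adm2, which encodes the secreted peptide adrenomedullin 2, lay at 0.802, 0.516 and 0.374 CPM in control and at 38.8, 36.7 and 38.7 CPM after deprivation, a log2 fold change of 6.12. Extl1, a glycosyltransferase of the heparan sulphate family, went from 0, 0.188 and 0.374 CPM to 11.4, 11.3 and 12.3 CPM. Otub2, a deubiquitinase, went from 0.351, 0.235 and 0.340 CPM to 11.4, 11.7 and 11 CPM (log2 fold change 5.16), and Cspg5, a membrane proteoglycan, from 0.100, 0.329 and 0.102 CPM to 6.88, 7.47 and 7.10 CPM (5.34). In each of these genes the deprived libraries lay close together and far above the control libraries. Usp17la, another deubiquitinase, went from 0.301, 0.188 and 0.102 CPM to 8.0, 9.17 and 6.98 CPM (5.39). Trp53cor1, a long noncoding RNA induced by p53, had no count in the control libraries and lay at 0.512, 0.851 and 1.00 CPM after deprivation.

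A decrease that rests on 1 control library is that of Pgk1-rs7. This gene, a copy of a glycolytic gene, lay at 0.050, 0 and 21.9 CPM in control and at 0, 0 and 0.040 CPM after deprivation, so that control replicate 3 alone held its level.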
